A study of Schizosaccharomyces pombe with 12 samples.

Results

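Transcripts of 5 genes that fold, inspect and remove proteins in the endoplasmic reticulum (ER), ire1, bip1, cnx1, gpt1 and hrd1, were followed in fission yeast (Schizosaccharomyces pombe) exposed to heavy water (D2O), in which deuterium replaces hydrogen. The 5 were taken by symbol from the 7015 features listed for every sample, and all 5 passed the filter on low counts. The strain was wild type and carried no selection markers. Cells grew to exponential phase in YES, a rich medium of yeast extract, glucose, adenine, uracil and leucine, and were then left untreated (H2O, 4 samples) or kept in YES made with 100% D2O for 5 h (4 samples) or 24 h (4 samples). The design text calls the 4 samples of each condition independent without saying how they were kept apart, so p-values measure the spread between these samples. H2O cultures of matching age were not analysed here, so time in D2O, time in culture and the transfer of the cells cannot be told apart. Since RNA came from whole cultures, a change in few cells and a smaller change in all cells cannot be told apart either.

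Proteins that enter the secretory pathway fold in the ER with the help of the Hsp70 chaperone BiP and of a cycle that reads their sugar chains. In that cycle calnexin holds glycoproteins that carry a terminal glucose, and a glucosyltransferase puts the glucose back on those that are still misfolded. Proteins that stay misfolded are marked with ubiquitin by ligases such as Hrd1 and are destroyed by the proteasome. The kinase and nuclease Ire1 senses misfolded protein in the ER. Budding yeast Ire1 splices the mRNA of a transcription factor, whereas in fission yeast Ire1 is known to cut mRNAs at the ER membrane, most of which then decay, and to trim the bip1 mRNA, which is thereby stabilised. Gene-level read counts do not tell cut from uncut bip1 mRNA.

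The bip1, cnx1 and hrd1 genes are shown with the 250 bases before the start of the RefSeq gene (assembly ASM294v3, found by gene ID). They are the ones of the 5 whose windows held a match to a heat shock element or to the cAMP response element. Transcripts of bip1 and cnx1 were highest at 5 h, but so was that of gpt1, which had no match. The hrd1 transcript was higher at each longer exposure, and so was the mean of ire1, which had no match to these elements either. Capitals mark matches to heat shock elements in bip1 and cnx1 and to the cAMP response element in hrd1. The windows are chrI:1185486-1185735 for bip1, chrI:2088325-2088574 for cnx1 and chrII:3308664-3308913 for hrd1, all on the minus strand and written 5′ to 3′.
bip1: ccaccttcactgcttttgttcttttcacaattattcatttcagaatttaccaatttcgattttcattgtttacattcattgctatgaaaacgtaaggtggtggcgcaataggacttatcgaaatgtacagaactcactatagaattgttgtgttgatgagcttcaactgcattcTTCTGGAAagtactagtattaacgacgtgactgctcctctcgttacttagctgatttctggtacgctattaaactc
cnx1: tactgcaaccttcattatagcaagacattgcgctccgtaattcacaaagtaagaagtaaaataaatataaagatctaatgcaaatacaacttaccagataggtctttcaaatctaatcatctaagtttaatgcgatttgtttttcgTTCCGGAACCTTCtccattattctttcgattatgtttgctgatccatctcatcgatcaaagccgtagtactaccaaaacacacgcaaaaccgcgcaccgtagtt
hrd1: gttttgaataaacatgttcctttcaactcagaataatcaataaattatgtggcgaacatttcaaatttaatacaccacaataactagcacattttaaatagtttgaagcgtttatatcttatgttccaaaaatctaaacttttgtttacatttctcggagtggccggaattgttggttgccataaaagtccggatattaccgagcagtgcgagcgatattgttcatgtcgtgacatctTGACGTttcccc

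Both strands of the 5104 protein-coding promoters of that length were searched for the heat shock element, the site of the heat shock factor, as TTCNNGAA, as GAANNTTC and as TTCNNGAA followed directly by NNTTC. The longest form matched 21 of 5104 promoters (0.411%) and was present once in cnx1, where its first base lay 104 bases before the gene start. TTCNNGAA matched 8.35% of promoters and GAANNTTC 9.46%, and the matches to both in cnx1 lie within the longer one. The bip1 window held 1 match to TTCNNGAA, 76 bases before the gene start. TGACGT, the cAMP response element bound by Atf1-type factors, matched 5.53% of promoters, and the match in hrd1 began 12 bases before the gene start. No match to these motifs was present in the windows of ire1 and gpt1. The CCAAT box, searched as well and not marked by capitals, matched 35.4% of promoters. It was present once in ire1, 109 bases before the gene start, and once in bip1, 201 bases before it. A match is a run of letters and not a measured binding site. The start of a gene can differ between annotations, since the deposited tables list cnx1 at 2187 bases where the RefSeq gene spans 1932.

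Total counts lay between 26775612 and 27166349 per sample, and the 5 genes together held 0.276% to 0.455% of them. Counts were scaled with TMM factors and are given as CPM, the read count relative to a library size corrected by that factor. Fold changes, standard errors and p-values come from the quasi-likelihood test of edgeR, fitted over all 6683 features that passed the filter, with Benjamini-Hochberg adjustment over all of them. A feature was called changed at an adjusted p under 0.05. In replicate 2 of the 24 h group, 2.84% of counts fell on rRNA features, while this share was 0.0617% to 0.717% elsewhere. Leaving that sample out moved the call of cnx1 at 24 h, described below, and no other call of the 5 genes.

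Per kilobase of gene, bip1 and cnx1 were the most abundant of the 5 transcripts in every group and ire1 the least. In H2O the levels were 609 ± 23.2 CPM per kilobase for bip1, 421 ± 14.3 for cnx1, 85.3 ± 2.86 for gpt1, 33.4 ± 1.74 for hrd1 and 27.1 ± 1.15 for ire1 (SD, n = 4). The median protein-coding gene had 37.8 CPM per kilobase in H2O, between gpt1 and hrd1. At 5 h the levels were 752 ± 48.7 for bip1, 640 ± 20.7 for cnx1, 92.8 ± 1.05 for gpt1, 42.6 ± 2.87 for hrd1 and 28.6 ± 1.09 for ire1 CPM per kilobase. At 24 h they were 434 ± 38.5 for bip1, 390.3 ± 17.1 for cnx1, 86.6 ± 1.24 for gpt1, 54.7 ± 3.61 for hrd1 and 30.2 ± 0.482 for ire1. The order of the 5 was the same in the 3 groups. Neighbours in that order did not overlap in any sample of a group, except bip1 and cnx1 at 24 h, whose ranges overlapped. The rank of hrd1 among the 5089 protein-coding genes moved, with 2851 genes above it in H2O, 2262 at 5 h and 1798 at 24 h.

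The transcript of the sensor, ire1 (SPAC167.01), stayed within a narrow range under TMM scaling. Its CPM was 98.3, 90.3, 96.4 and 90.8 in the H2O samples, 97.4, 94.8, 99.9 and 104 at 5 h and 107, 104, 103 and 105 at 24 h. The 5 h values overlapped both other groups, and the 24 h values all lay above those of H2O. The log2 fold change at 24 h against H2O was 0.16 (edgeR adjusted p = 0.00139, SE 0.037), a factor of 1.11 with a 95% interval from 1.05 to 1.18. At 5 h against H2O the log2 fold change was 0.07 (edgeR adjusted p = 0.0845, SE 0.037), with an interval from -0.01 to 0.15. Between 24 h and 5 h it was 0.08 (edgeR adjusted p = 0.0638, SE 0.037). Such a difference is small among these data, as 80.4% of the features tested had a larger absolute log2 fold change at 24 h against H2O. With samples scaled by library size alone, the log2 fold change of ire1 against H2O was 0.27 at 5 h (edgeR adjusted p = 6.19e-06). It was then 0.34 at 24 h (edgeR adjusted p = 3.9e-07).

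Reads of ire1 could not be told apart from those of the features that overlap it on the opposite strand. The long non-coding feature ire1-antisense-1 lies within the gene over 2087 bases, and the strand of the reads is not given in the sources used here. Its level was 33.0 ± 1.79 CPM per kilobase in H2O, 34.3 ± 1.93 at 5 h and 36.6 ± 0.957 at 24 h (SD, n = 4), close to that of ire1 itself in each group. Its log2 fold change at 24 h against H2O was 0.15 (edgeR adjusted p = 0.00843, SE 0.046). How many reads the 2 features share was not tested. The other members overlap other listed features by at most 183 bases, which is the overlap of hrd1 with nep1, and bip1 and gpt1 overlap none.

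The chaperone transcript bip1 (SPAC22A12.15c), which encodes the ER Hsp70, was above its H2O level at 5 h and below it at 24 h. Its CPM was 1724, 1671, 1792 and 1644 in H2O, 2007, 2199, 2251 and 1978 at 5 h and 1293, 1327, 1145 and 1108 at 24 h. The 3 groups did not overlap. At 5 h against H2O bip1 rose by a log2 fold change of 0.30 (edgeR adjusted p = 0.000553, SE 0.064), a factor of 1.24. It fell at 24 h against H2O, with a log2 fold change of -0.49 (edgeR adjusted p = 5.19e-06, SE 0.064), a factor of 0.714. Its log2 fold change at 24 h against 5 h was -0.79 (edgeR adjusted p = 8.26e-08, SE 0.064), and 9.73% of the features tested had a larger absolute change in that comparison. The largest spread among the 5 genes was that of bip1 at 24 h, where the SD was 8.87% of the mean.

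Calnexin, encoded by cnx1 (SPAC3C7.11c), rose most of the 5 at 5 h and was back near its H2O level at 24 h. Its CPM was 955, 891, 939 and 897 in H2O, 1345, 1415, 1452 and 1386 at 5 h and 892, 867, 852 and 804 at 24 h. Every 5 h sample lay above every sample of the other groups, while H2O and 24 h met at their edges. At 5 h against H2O the log2 fold change was 0.60 (edgeR adjusted p = 1.88e-08, SE 0.046), a factor of 1.52 with a 95% interval from 1.42 to 1.63. Compared with 5 h, the 24 h value was at -0.71 (edgeR adjusted p = 7.29e-09, SE 0.046). At 24 h against H2O it was -0.11 (edgeR adjusted p = 0.04, SE 0.046), a call that was lost in 5 of the 8 fits that left out 1 sample. Those 5 fits lacked H2O replicate 1 or 3 or 24 h replicate 2, 3 or 4, and their adjusted p in edgeR reached 0.132. With samples scaled by library size alone the same value was 0.08 (edgeR adjusted p = 0.0684), so its direction depends on the scaling.

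The glucosyltransferase transcript gpt1 (SPBPJ4664.06), whose product returns glucose to misfolded glycoproteins so that calnexin can bind them again, moved little under TMM scaling. Its CPM was 407, 408, 432 and 432 in H2O, 460.3, 452, 461 and 451 at 5 h and 417, 429, 431 and 426 at 24 h. The 5 h samples lay above all others, and the 24 h samples lay inside the range of H2O. At 5 h against H2O the log2 fold change was 0.12 (edgeR adjusted p = 0.016, SE 0.041), a factor of 1.09, and 0.32 under library-size scaling (edgeR adjusted p = 1.42e-05). At 24 h against H2O it was 0.02 (edgeR adjusted p = 0.656, SE 0.041), with a 95% interval from -0.07 to 0.11. Compared with 5 h, the 24 h value was at -0.10 (edgeR adjusted p = 0.044, SE 0.041), and 7 of the 8 fits without 1 sample did not reach the threshold. Only the fit without 24 h replicate 2 kept that call.

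The ligase transcript hrd1 (SPBC17D11.02c), whose product ubiquitinates misfolded ER proteins, was higher at 5 h and higher again at 24 h. Its CPM was 76.6, 75.0, 79.5 and 70.1 in H2O, 87.6, 94.6, 98.7 and 103 at 5 h and 128, 115, 118 and 133 at 24 h. The 3 groups did not overlap. At 5 h against H2O the log2 fold change was 0.35 (edgeR adjusted p = 6.38e-05, SE 0.057), a factor of 1.27. At 24 h against H2O it was 0.71 (edgeR adjusted p = 2.22e-08, SE 0.057), a factor of 1.64 with a 95% interval of the log2 value from 0.59 to 0.83. Compared with 5 h, the 24 h value was at 0.36 (edgeR adjusted p = 5.72e-05, SE 0.057). The neighbouring nep1, which shares 183 bases with hrd1, had a log2 fold change of 0.35 at 24 h against H2O (edgeR adjusted p = 9.01e-07, SE 0.039), and its part in the hrd1 value was not tested.

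**Figure D1:**
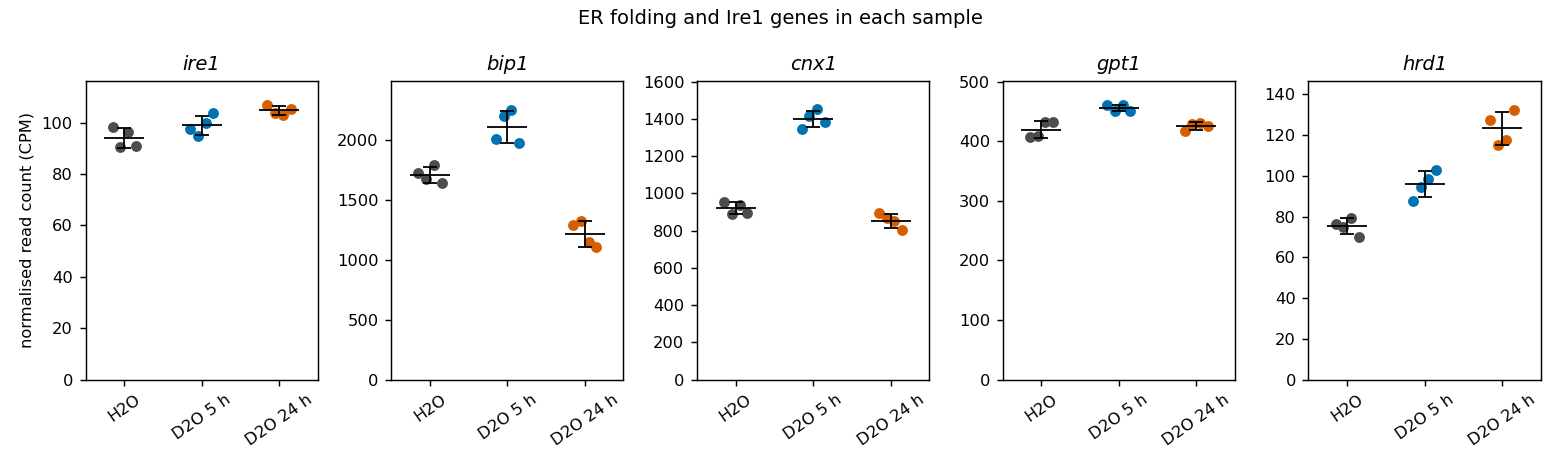
Normalised read count (CPM, linear axis from 0) of each of the 5 genes in the 4 samples of H2O, 5 h D2O and 24 h D2O; points are samples, and the horizontal line and bars are the mean and SD. The transcripts of bip1 and cnx1 peak at 5 h, at 2109 and 1399 CPM on average, while hrd1 is highest at 24 h, at 123 CPM.

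Set side by side, 4 of the 5 genes were called at 5 h against H2O, all 4 higher, where 76.4% of all features tested were called in either direction, 39.1% higher and 37.3% lower. At 24 h against H2O, ire1 and hrd1 were called higher and bip1 and cnx1 lower, where 81.2% of all features were called, 41.8% higher and 39.4% lower. At 24 h against 5 h, hrd1 was called higher and bip1, cnx1 and gpt1 lower, where 68.3% of all features were called, 33.6% higher and 34.6% lower. Groups did not overlap at 5 h against H2O for 4 of the 5 genes, beside 69.3% of all features (35.2% higher, 34.1% lower), and at 24 h against H2O for ire1, bip1 and hrd1, beside 76.3% (39.2% higher, 37.1% lower). Between 24 h and 5 h they did not overlap for bip1, cnx1, gpt1 and hrd1, beside 61.2% of all features (30.4% higher, 30.9% lower). The number of genes called was thus close to the share in the whole table, and what set the genes apart from each other was direction and size. The comparisons with H2O share the H2O samples, so the values at 5 h and 24 h are not independent. The median feature changed by 0.01 on the log2 scale at either time under TMM scaling and by 0.21 at 5 h and 0.20 at 24 h under scaling by library size. Under library-size scaling the log2 fold change at 5 h was 0.27 for ire1 (edgeR adjusted p = 6.19e-06), which passed the threshold, and at 24 h it was 0.21 for gpt1 (edgeR adjusted p = 0.000784), which did so too. The scaling also moved values whose calls it left alone, to 0.34 for ire1 and -0.30 for bip1 at 24 h against H2O, and 0.51 for bip1 and 0.55 for hrd1 at 5 h against H2O. The signs of ire1, bip1, gpt1 and hrd1 were the same under both scalings in all 3 comparisons. Those of cnx1 were the same at 5 h against H2O and at 24 h against 5 h. Under TMM scaling gpt1 was not called at 24 h against H2O, nor ire1 at 5 h against H2O or at 24 h against 5 h. A direction was thus not established for those values.

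**Figure D2:**
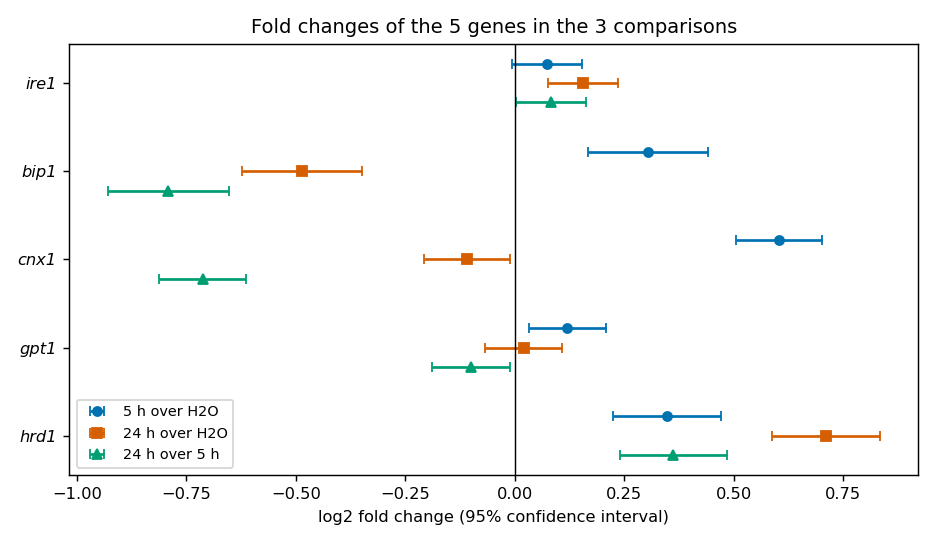
Log2 fold change (horizontal axis) of the 5 genes at 5 h over H2O, 24 h over H2O and 24 h over 5 h, with 95% confidence intervals from the edgeR fit of 12 samples. The values of hrd1 lie right of 0 in each comparison, and those of bip1 lie right of 0 at 5 h over H2O (0.30) and left of it at 24 h over H2O (-0.49).

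Ratios between 2 genes within a sample do not depend on how samples are scaled. The ratio of bip1 to each of the other genes, in counts per kilobase, was compared between groups by an exact permutation test, two-sided, with 4 samples on either side and 12 tests in all, where 0.0286 is the smallest p that can be reached and 0.0343 the value after Benjamini-Hochberg adjustment over the 12. Bip1 exceeded cnx1 by a factor of 1.16, 1.21, 1.21 and 1.11 in the 5 h samples and of 1.41, 1.46, 1.49 and 1.43 in the H2O samples. The 5 h and H2O samples did not overlap, and the log2 ratio differed by -0.30 (exact p = 0.0286, adjusted p = 0.0343). At 24 h the factor lay between 1.05 and 1.19, a log2 difference of -0.38 from H2O (exact p = 0.0286, adjusted p = 0.0343) and of -0.08 from 5 h (exact p = 0.171, adjusted p = 0.187). The balance of the 2 chaperone transcripts thus moved towards cnx1 at 5 h, and a further move by 24 h was not distinguishable from the spread between samples.

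Relative to the degradation ligase, bip1 was lower at 24 h than in either other group, and at 5 h no difference from H2O was detectable. The ratio of bip1 to hrd1 lay between 15.5 and 18.7 at 5 h and between 17.9 and 18.8 in H2O, a log2 difference of -0.04 (exact p = 0.857, adjusted p = 0.857). It lay between 6.71 and 9.24 at 24 h, with a log2 difference of -1.20 from H2O (exact p = 0.0286, adjusted p = 0.0343) and of -1.16 from 5 h (exact p = 0.0286, adjusted p = 0.0343). The ratio of bip1 to ire1 was 23.5 to 28.6 at 5 h against 21.6 to 22.9 in H2O, a log2 difference of 0.23, and 13.0 to 15.8 at 24 h, a log2 difference of -0.65 from H2O. The ratio of bip1 to gpt1 was 7.64 to 8.57 at 5 h against 6.67 to 7.43 in H2O, a log2 difference of 0.18, and 4.56 to 5.44 at 24 h, a log2 difference of -0.51 from H2O. The groups did not overlap in any of these 4 differences, whose exact p was 0.0286 and adjusted p 0.0343 by the permutation test.

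**Figure D3:**
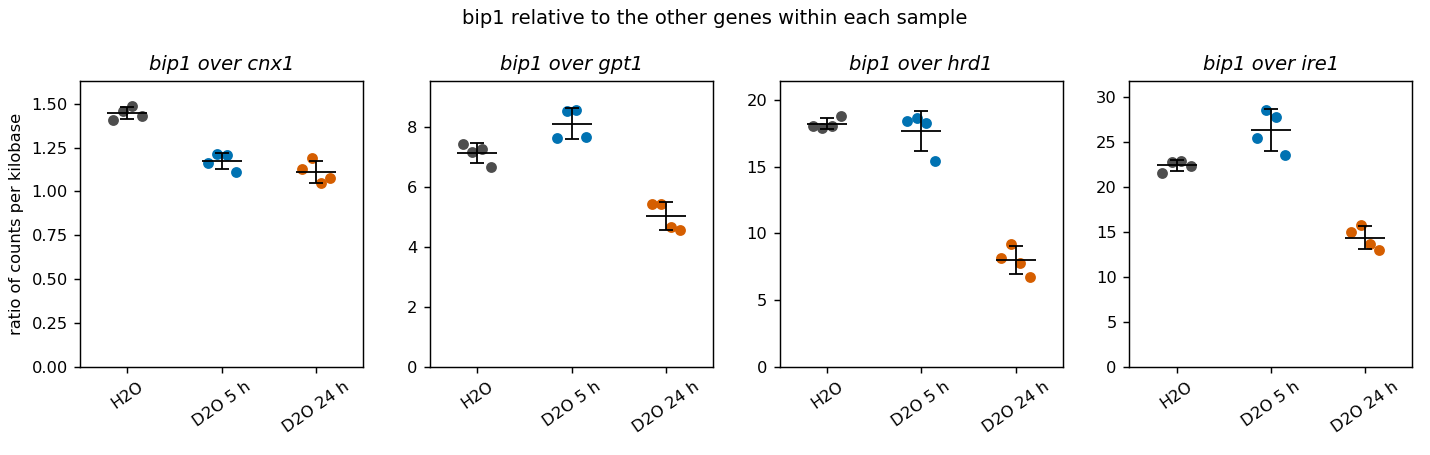
Ratio of bip1 to cnx1, gpt1, hrd1 and ire1 in counts per kilobase (linear axes from 0) in each sample of H2O, 5 h D2O and 24 h D2O, with the mean and SD. The ratio to hrd1 lies between 6.71 and 9.24 in the 24 h samples, below every other sample, while that to cnx1 is already lower at 5 h.

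Other genes of ER folding, glycosylation, translocation, degradation and export were taken from 7 lists. In all, 93 genes of the lists were tested and none is one of the 5. At 5 h against H2O 23 were called higher and 45 lower, at 24 h against H2O 30 were higher and 39 lower. Among all features tested 39.1% were called higher and 37.3% lower at 5 h, while the 24 h shares were 41.8% and 39.4%, and these are the background of each list described next. The 39 genes lower at 24 h were thus near the share of all features. The median log2 fold changes of the 93 genes were -0.11 and -0.03, beside 0.01 for all features at both times. Changes of at least 2-fold were seen in 2 genes at 5 h and in 3 at 24 h. At both times 18 genes were called higher and 32 lower, and 3 were called lower at 5 h and higher at 24 h.

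The ER-associated degradation list was mostly higher in D2O. RefSeq describes its members ubx2, ubx3 and ubx4 only as UBX domain proteins. The 12 genes were taken by symbol as acting with or beside Hrd1. At 5 h 8 were called higher and 2 lower, beside 39.1% and 37.3% of all features, with a median log2 fold change of 0.35, and at 24 h 10 were called higher and 0 lower, beside 41.8% and 39.4%, with a median of 0.48. In 7 of 16 alternatives 1 gene of the list was called lower at 24 h, namely with DESeq2, with median-of-ratios scaling, with the replicate block, with only the 2 groups compared, with protein-coding features only, without H2O replicate 2 and without 24 h replicate 1. In edgeR as reported, 1 was lower at an unadjusted p under 0.05 in edgeR, which is ubx3 with a log2 fold change of -0.12 (edgeR adjusted p = 0.056). The ubiquitin-conjugating enzyme ubc6 averaged 81.7 ± 3.26 CPM at 5 h and 83.3 ± 5.01 CPM at 24 h, against 37.6 ± 4.96 CPM in H2O (SD, n = 4), a log2 fold change of 1.12 at 5 h (edgeR adjusted p = 5.45e-09, SE 0.076) and 1.15 at 24 h (edgeR adjusted p = 2.16e-09, SE 0.076). The whole of ubc6 is overlapped by SPAC10F6.04. Of the same list, ubx3 shares 96.9% of its span with other listed features, der1 82.2% and ufd1 64.5%. Over the 7 lists, 14 genes share at least 50% of their span in this way. How many reads such features share was not tested. The UBX domain gene ubx4, whose product family binds the ATPase Cdc48, averaged 73.8 ± 1.79 CPM at 24 h against 33.1 ± 1.92 CPM in H2O, a log2 fold change of 1.16 (edgeR adjusted p = 7.01e-12, SE 0.045). The gene of Cdc48 itself, which pulls ubiquitinated proteins out of the membrane, had log2 fold changes against H2O of 0.76 (5 h) and 0.46 (24 h). Hrd3, the partner of Hrd1 in the ligase, had log2 fold changes of 0.11 (5 h) and 0.60 (24 h), and was picked for that partnership and not by the naming rule. Of the genes that fell at 5 h, the ligase doa10 stood at -0.31 on the log2 scale and the conjugating enzyme ubc7 at -0.21. At 24 h ubc7 was called higher (0.27), doa10 was at 0.04 and was not called, and cue1, which recruits Ubc7 to the membrane in budding yeast, was called higher (0.41).

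ER chaperones and enzymes of disulfide bonds were called in both directions, near the shares of all features. Of 15 genes, at 5 h 6 (40%) were called higher and 7 (46.7%) lower, beside 39.1% and 37.3% of all features. At 24 h 7 (46.7%) were higher and 6 (40%) lower, beside 41.8% and 39.4%. The median log2 fold change of the list was -0.09 at 5 h and 0.03 at 24 h. The thiol oxidase gene ero11, which makes disulfide bonds for protein disulfide isomerases, averaged 221 ± 6.45 CPM at 5 h and 200.5 ± 9.88 CPM at 24 h, against 122 ± 6.38 CPM in H2O (SD, n = 4). Its log2 fold changes were 0.85 (edgeR adjusted p = 8.89e-10, SE 0.049) and 0.71 (edgeR adjusted p = 3.29e-09, SE 0.049). The thioredoxin family gene mpd1 had log2 fold changes of 0.54 (5 h) and 0.40 (24 h). On the other side the cyclophilin gene cyp4 had a log2 fold change at 5 h of -0.74, and the chaperone rot1 (listed as SPAC31G5.02) had one of -0.43. At 24 h the J-domain gene erj5, a partner of Hsp70 chaperones, had a log2 fold change of -0.66 and pdi5, of the disulfide isomerase family, one of -0.59. The gene erj5 shares 50.4% of its span with cwg2.

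Enzymes that trim or read the sugar chain were represented by 5 genes, of which 1 was called higher and 1 lower at 5 h, with 2 higher and 1 lower at 24 h. The median log2 fold changes were -0.02 and 0.04. The mannosidase-like gene mnl1, which in budding yeast marks glycoproteins for degradation, had log2 fold changes of 0.31 (5 h) and 0.38 (24 h). Glucosidase I, gls1 (listed as SPAC6G10.09), had one of -0.17 at 5 h, which became 0.03 under library-size scaling. At 24 h gls2, the catalytic subunit of glucosidase II, had one of 0.14, and the mannosidase mns1 had one of -0.13, which became 0.06 under library-size scaling.

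The genes that carry proteins into the ER were mostly lower. Of the 17 genes of the translocation and signal peptidase list, 1 was called higher and 12 lower at 5 h (median log2 fold change -0.33), and 1 higher and 14 lower at 24 h (median -0.45). The channel subunit sec61 had 229.7 to 249 CPM at 5 h and 195 to 220.4 CPM at 24 h, against 370.1 to 428 CPM in H2O. Its log2 fold changes were -0.71 (edgeR adjusted p = 3.38e-08, SE 0.057) and -0.90 (edgeR adjusted p = 1.5e-09, SE 0.057). The gene listed as SPAC2F3.02, which RefSeq names as a translocation subunit, had log2 fold changes of -0.80 and -0.97 at 5 h and 24 h, and 62.3% of its span is shared with rpa49. The called rises were in sec62 at 5 h (0.20) and in sec63, the membrane J-domain partner of BiP, at 24 h (0.18). The falls of srp68 at 5 h (-0.20) and of srp21, listed as SPAC17H9.07, at 24 h (-0.24) were the lesser ones named by the rule, and 96.1% of the span of srp68 is shared with cdc31.

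Glycan assembly and the oligosaccharyltransferase, which builds the sugar chain and hands it to the protein, had 4 of 26 genes called higher and 12 lower at 5 h, with 4 higher and 11 lower at 24 h. The median log2 fold changes were -0.11 and -0.07. The oligosaccharyltransferase subunits wbp1 and swp1 fell most at both times, with log2 fold changes of -0.60 and -0.53 at 5 h and of -0.72 and -0.65 at 24 h. Called rises included dpm2 at 5 h (0.49) and alg13 (0.38) and ost2 (0.31) at 24 h. The ranges of ost2 overlapped, at 101 to 144 CPM at 24 h against 85.2 to 105 CPM in H2O, and 48.1% of its span is shared with rax2. Of the 16 genes of export in COPII vesicles 1 was called higher and 11 lower at 5 h (median log2 fold change -0.22), and 4 higher and 7 lower at 24 h (median -0.07). The coat subunit sec24 had log2 fold changes of -0.56 (5 h) and -0.47 (24 h), the coat subunit sec231 one of -0.43 at 5 h and the cargo receptor erv14 one of -0.50 at 24 h. The named rises were in erp5 at 5 h (0.18) and in sar1 (0.21) and the cargo receptor listed as SPCC970.06 (0.29) at 24 h. The ranges of erp5 overlapped, at 103 to 124 CPM at 5 h against 90.7 to 104 CPM in H2O. Those of sar1 did too, at 233 to 273 CPM at 24 h against 207 to 254 CPM in H2O. The gene sar1 shares 45.1% of its span with mug37. Of the falls named at 5 h, sfb3, listed as SPBC4.03c, was the least (-0.17).

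Library-size scaling moved the split of these lists and of the whole table, where 53.7% of all features were then called higher and 23.3% lower at 5 h, while the 24 h shares were 52.7% and 29%. Under it the translocation list had 5 genes called higher and 7 lower at 5 h, with 3 higher and 11 lower at 24 h, and the COPII list had 5 higher and 5 lower at 5 h, with 8 higher and 5 lower at 24 h. The glycan assembly list had 11 higher and 6 lower at 5 h, with 11 higher and 8 lower at 24 h, so that its share called higher, 42.3% at both times, was below that of all features. For ER chaperones the numbers were 8 higher and 5 lower at 5 h, with 9 higher and 5 lower at 24 h. Of the 12 genes of the degradation list, 10 were called higher at 5 h and 11 at 24 h.

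**Figure D4:**
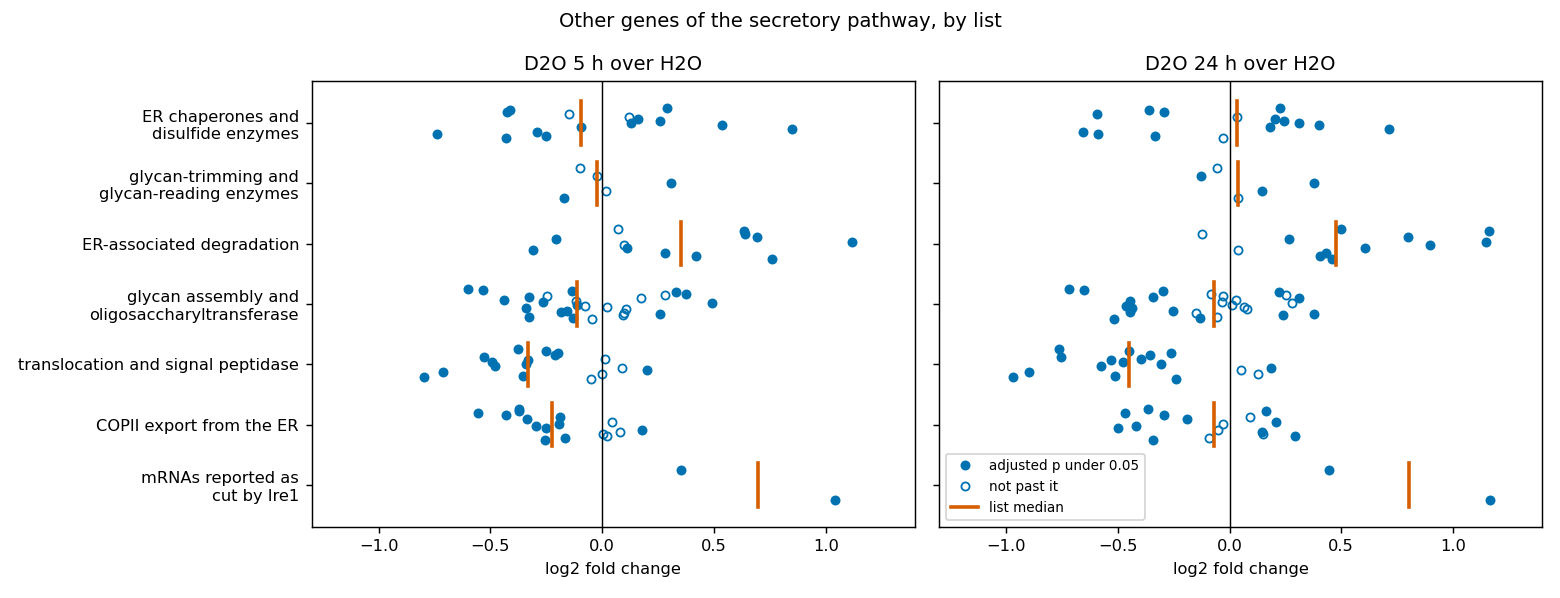
Log2 fold change of each gene of the 7 lists at 5 h over H2O (left) and 24 h over H2O (right); filled points passed an adjusted p of 0.05 in edgeR, open points did not, and the orange line is the list median. The degradation list has its median at 0.35 and 0.48, and the translocation list at -0.33 and -0.45.

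The mRNAs gas2 and yop1 are known in fission yeast as targets that Ire1 cuts. The glucanosyltransferase gene gas2 averaged 1347 ± 116 CPM at 5 h and 1468 ± 57.8 CPM at 24 h, against 655 ± 55.5 CPM in H2O (SD, n = 4), with log2 fold changes of 1.04 (edgeR adjusted p = 4.76e-09, SE 0.069) and 1.16 (edgeR adjusted p = 7.01e-10, SE 0.069). The gene shares 85.1% of its span with tri1. The ER-shaping gene yop1, which overlaps no listed feature, averaged 252 ± 0.779 CPM at 5 h and 268 ± 5.12 CPM at 24 h, against 197 ± 8.10 CPM in H2O. Its log2 fold changes were 0.35 (edgeR adjusted p = 1.91e-06, SE 0.041) and 0.44 (edgeR adjusted p = 1.13e-07, SE 0.041). Neither gene was called at 24 h against 5 h in edgeR, with log2 fold changes of 0.12 for gas2 (adjusted p = 0.122) and 0.09 for yop1 (adjusted p = 0.0666). At an unadjusted p under 0.05, 1 of them was higher, and DESeq2 called 1. The amount of mRNA does not show how much of it was cut.

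The genes most like each of the 5 over the 12 samples were found by Pearson's r of log2 CPM among 4870 other protein-coding genes whose log2 CPM averaged 3 or more. The 12 samples fall into 3 groups that they share, so the r values describe mainly the 3 group levels. Closest to bip1 were mas5, a J-domain co-chaperone of cytosolic Hsp70 (r = 0.988), the aromatic aminotransferase SPBC1773.13 (r = 0.977) and the cytochrome b5 reductase cbr1 (r = 0.977). Closest to cnx1 were ubx3 of the degradation list (r = 0.993), the CCAAT-binding factor repressor php4 (r = 0.985) and the eisosome gene fhn1 (r = 0.985). The level of ubx3 was 207 ± 7.21 CPM at 5 h against 133 ± 9.99 CPM in H2O, and it was 122 ± 6.90 CPM at 24 h (SD, n = 4), and 96.9% of ubx3 is shared with its antisense feature. Closest to hrd1 were the ubiquitin-conjugating enzyme ubc13 (r = 0.987), wtf11 (r = 0.985) and the lipase rog1 (r = 0.985). Closest to gpt1 were the checkpoint gene rad9 (r = 0.958), SPAC57A7.13 (r = 0.926) and the purine synthesis gene ade7 (r = 0.922). Closest to ire1 were tfg1 of the transcription factor TFIIF (r = 0.942), SPAC6G9.14 (r = 0.939) and the chromatin remodelling subunit snf30 (r = 0.937). Among the 5 themselves, r was 0.899 for ire1 and hrd1, 0.863 for bip1 and cnx1, 0.824 for cnx1 and gpt1 and -0.583 for bip1 and hrd1.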

How the data were processed

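RNA sequencing of total RNA, purified with hot phenol per the labels' protocols, was available as 1 table per sample. The columns hold reads, length and RPKM of 7015 features. The deposited count values are whole numbers, unnormalised reads per feature per the file headers. The deposited RPKM values were recomputed from count, length and column total with a largest relative difference of 4.96e-06, and were not tested. BWA 0.7.12 is named in the submitters' processing notes without a role. The counting program, genome build, annotation and strandedness are not given in the sources used here.

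Groups and replicate numbers came from the sample titles. Counts of the 12 samples were fitted in 1 model with group as its only term (edgeR 4.0.16 with limma 3.58.1, R 4.3.3), with TMM scaling and filterByExpr at a minimum count of 10, which left 6683 features. The procedure was tested on simulated data with 200 changed features, far fewer than the 5108 called here at 5 h against H2O. That test therefore does not show how TMM scaling behaves where most features change. Standard errors were derived from the F statistic (absolute log2 value over its root). Depth is about the same in all samples, and intervals on counts cover counting error and spread as the model estimates them. No replicate pair looked like a library deposited again: the lowest chi-square per degree of freedom was 8.38, above sampling noise.

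The members and lists were chosen with earlier results of these data known. Features were matched by ID to RefSeq ASM294v3 (6845 of 7015, 97.6%) for gene classes, overlaps, products and promoter windows. Of 107 list symbols, 98 matched, 8 did not, 1 was ambiguous, and 4 of the matched ones (gtb1, png1, sec71 and sec72) were dropped because RefSeq gives these symbols to other proteins, which was seen after the values. The named list genes are the 2 highest and 2 lowest log2 fold changes among called genes of each list and comparison, and every gene of a list under 4 genes. The values of 1 gene that this rule names are not reported here. Alternatives were median-of-ratios and library-size scaling, no filter, DESeq2 1.42.0, a replicate block, protein-coding features only, dropping the 10 features with most reads, fitting just the 2 groups of a comparison, and leaving out each sample. Ratios used a prior count of 0.5, or 5 as the alternative.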

Additional observations from a re-analysis of the deposited data

Results flagged for a closer look

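By the direct comparison of these groups in edgeR, the log2 fold change against H2O differed between 24 h and 5 h for 4 of the 5 genes. Of all features tested, 68.3% were called in that comparison, so the number is near the share of the whole table. The call of gpt1 was lost in 7 of the 8 fits that left out 1 sample. The difference, 24 h over 5 h, was -0.79 for bip1, -0.71 for cnx1, -0.10 for gpt1 and 0.36 for hrd1. The list genes that follow were named for the highest and lowest log2 fold changes among the genes called in this same comparison. That they differ between the times therefore follows from the choice and is no separate result. Among ER chaperones and disulfide enzymes the difference was -0.44 for pdi5, -0.36 for erj5, 0.28 for ero12 and 0.40 for SPAC31G5.02 (rot1). It was -0.11 for mns1, 0.13 for gls2 and 0.21 for SPAC6G10.09 (gls1) among the enzymes that trim glycans. In the degradation list it was -0.76 for ubx3, -0.30 for cdc48, 0.52 for ubx4 and 0.80 for npl4, an adaptor of Cdc48. For glycan assembly it was -0.47 for alg1, 0.27 for alg11 and 0.47 for ost1. For translocation it was -0.41 for SPAC23H4.07c (the beta subunit of the signal recognition particle receptor), -0.38 for sss1, -0.15 for sec62 and 0.10 for sec63. For COPII export it was -0.24 for erv14, -0.23 for erp5, 0.28 for sec16 and 0.54 for sec31.

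Samples far from the other 3 of their group were found in 6 of 156 groups tested, where chance alone gives about 1 in 20 groups, and none concerned the 5 genes. At 5 h mns1 had 81.8 CPM in replicate 4 against 86.9 to 87.1 CPM in the others. At 24 h alg1 had 33.1 CPM in replicate 4 against 36.2 to 36.7 CPM, and alg11 had 142 CPM in replicate 1 against 137 to 138 CPM. In replicate 2 of the 24 h group srp68 had 182 CPM against 167 to 168 CPM in the others, and sar1 had 233 CPM against 266 to 273 CPM. In H2O sec31 had 655 CPM in replicate 1 against 580.3 to 593 CPM in the others.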

How the results depend on the processing

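Of 738 comparisons of a result with an alternative, over 51 results, 709 met a rule for staying the same. The rule was to keep the direction and the side of the threshold, or to stay within 1.5 times the count. Ratios without 1 sample had only to stay within 1 SD, since 0.0571 is the smallest exact p of 4 against 3 samples. Library-size scaling gave 0.076 for cnx1 at 24 h against H2O, a changed sign, 0.27 for ire1 at 5 h and 0.21 for gpt1 at 24 h, both then past the threshold. It also changed the sign of SPAC6G10.09 (0.029), srp68 (0.0019) and SPBC4.03c (0.033) at 5 h and of mns1 (0.056) at 24 h against H2O, and called 4 in place of 2 glycan-trimming genes at 5 h. With only the 2 groups compared in the fit, cnx1 at 24 h against H2O (-0.12) and gpt1 at 24 h against 5 h (-0.091) lost their calls, and ire1 at 24 h against 5 h (0.091) gained one. Without 1 sample, the values ranged from 0.051 to 0.10 for ire1 at 5 h against H2O, which gained a call in 2 of 8 fits (without H2O replicate 1 or 5 h replicate 2), and from 0.062 to 0.11 for ire1 at 24 h against 5 h, which gained one in 1 of 8 (without 5 h replicate 4). They ranged from -0.13 to -0.081 for cnx1 at 24 h against H2O and from -0.11 to -0.090 for gpt1 at 24 h against 5 h. The cause of these changes was not tested. Of the 2 mRNAs cut by Ire1, 0 were called at 24 h against 5 h, and 1 was called with DESeq2, with only the 2 groups compared and without 5 h replicate 4, so that without 1 sample the count ranged from 0 to 1. With the 4 dropped symbols kept, an alternative chosen after seeing the data, the glycan-trimming list had 4 genes called at 5 h, 5 at 24 h and 5 at 24 h against 5 h. Higher and lower calls over all features were 2616 and 2492 at 5 h and 2793 and 2636 at 24 h, and under library-size scaling 3589 and 1555 at 5 h and 3521 and 1940 at 24 h. Whether replicate numbers pair the samples was not settled. The correlation of deviations from the group means between samples of the same number ranged from -0.10 to 0.04 for 5 h and H2O, from -0.18 to 0.41 for 24 h and H2O and from -0.13 to 0.58 for 24 h and 5 h. Its mean for the same number was -0.007, 0.08 and 0.21 in that order, beside 0.003, -0.03 and -0.07 for other numbers. The samples correlated best with their own number in 0, 1 and 2 of 4 cases. With the replicate block gpt1 at 24 h against 5 h was -0.10 (edgeR adjusted p = 0.0569), and the features called were 5199 for 5 h, 5490 for 24 h and 4678 for 24 h against 5 h, where the fit without it called 5108, 5429 and 4563. Ratios kept their sides of the threshold with a prior count of 5. Low counts limit none of the 5 genes, the lowest count of which was 1780.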
